A study of Mus musculus with 4 samples.

Results

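The strongly shared sites of SRSF1 and SRSF2 are places in mouse transcripts where a high-scoring peak of each protein was listed on the same strand and overlapped the other by at least 1 nt. The peaks come from CLIP-seq, in which ultraviolet light links proteins to the RNA they touch, an antibody pulls out 1 protein, and the RNA pieces that come with it are sequenced. The sites were chosen by their measured scores: a pair was kept where both peaks had an authors' score of 20 or more, neither lay in a region that the authors named nongenic, and neither was mitochondrial. This gave 955 pairs, 5.02% of the 19028 overlapping genic pairs and part of the 20654 overlapping pairs of the whole lists. They joined 924 SRSF1 peaks, 1.97% of the 46898 genic ones, to 934 SRSF2 peaks, 1.82% of 51298. Merging pairs with a common peak left 903 sites, of which 854 held 1 pair, 46 held 2 and 3 held more.

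The series surveys how SR proteins cooperate and compete in splicing, with 4 CLIP-seq libraries made from MEFs, the fibroblasts of mouse embryos. The SRSF1 peaks came from SRSF1 tet-repressible MEFs and the SRSF2 peaks from SRSF2 tet-repressible MEFs. Both lines were grown without tetracycline, the drug that shuts the tagged gene off, and both precipitations used an antibody against the HA tag, so neither list measures the untagged protein. Protein and cell line therefore cannot be told apart, and the sources used here do not say how many clones a line stands for. The other SRSF1 libraries, made after siRNA treatment (control or directed at SRSF2), were not analysed here. Each protein has 1 library, so there are no replicates to compare and no p-values. Intervals given below are exact 95% intervals that cover counting error only, and neighbouring peaks are not independent.

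SR proteins carry RNA recognition motifs and a tail rich in serine and arginine. They bind exonic enhancers, recruit the splicing machinery to nearby splice sites and shape which exons are kept. SRSF1 shuttles between nucleus and cytoplasm and also acts in export, decay and translation of mRNA, whereas SRSF2 is known as a resident of nuclear speckles, and SR protein genes themselves carry exons that limit their own expression.

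The score that picks these sites is the authors' own whole number, at least 4 in both lists, and the sources used here do not say what it counts. A score of 20 lay high in both lists, since the 95th percentile of genic peaks was 18 for SRSF1 and 20 for SRSF2. In all, 1842 SRSF1 peaks (3.93%) and 2750 SRSF2 peaks (5.36%) reached it and are called strong here. The smaller of the scores in a strongly shared pair had a median of 24 and quartiles of 21 and 29.5, and 10% of pairs exceeded 43. No gap separated members from the rest at the limit. Just outside it, 203 pairs had a smaller score of 19 and 235 one of 18, and just inside it 148 pairs had 20 and 117 had 21. Scores also share a floor within a host transcript, described below, so a high score does not by itself mark a site that stands out within its transcript.

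**Figure D1:**
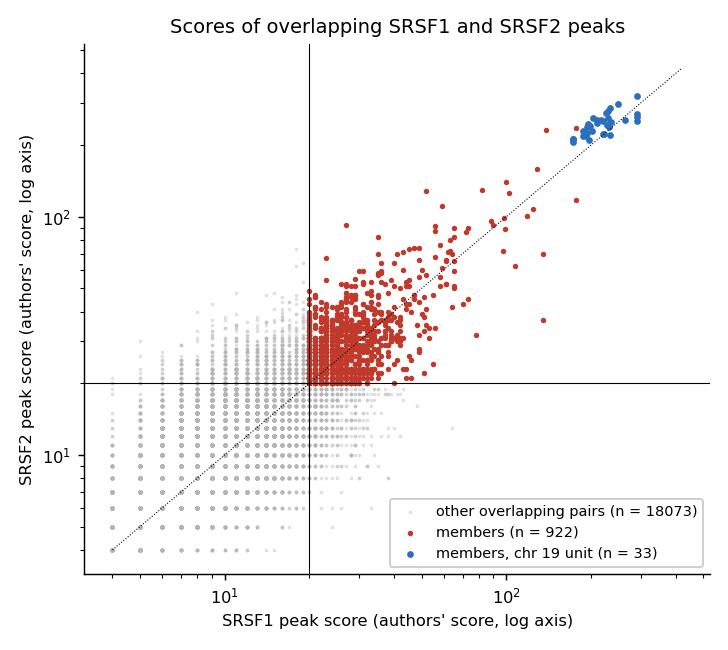
Authors' score of the SRSF1 peak (horizontal, log axis) against that of the SRSF2 peak (vertical, log axis) for each overlapping genic pair, with lines at 20, a dotted line of equal scores, and the pairs with both scores of 20 or more, called members, in colour. The cloud crosses both lines without a gap, and the 33 pairs of 1 unnamed unit on chromosome 19 lie at the upper right with scores of 172 or more, where 1 pair of another unit, with 177 and 236, lies too.

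About 1 strong SRSF1 peak in 2 had a strong SRSF2 peak on it, and about 1 strong SRSF2 peak in 3 had a strong SRSF1 peak. The shares were 50.2% for SRSF1 (interval 47.9 to 52.5) and 34.0% for SRSF2 (32.2 to 35.8). By a looser measure, 38.7% of all genic SRSF1 peaks and 35.6% of all genic SRSF2 peaks were overlapped by a peak of the other protein of any score. The paired shares ask for a strong partner, so they do not compare directly with these. Many strong peaks missed the rule by the height of the partner. A further 553 strong SRSF1 peaks (30.02%) met only weaker SRSF2 peaks, and for 314 of them the best partner scored 15 to 19. Among SRSF2 peaks, 1149 (41.8%) met only weaker SRSF1 peaks, 522 of them with a best partner of 15 to 19. No listed partner of any score was found for 365 strong SRSF1 peaks (19.8%) and 667 strong SRSF2 peaks (24.3%), so most strong peaks had one. Of the genic peaks scoring under 20, 37.0% for SRSF1 and 33.3% for SRSF2 had a partner of any score. In the numbering of peaks, 21.6% of the SRSF1 peak numbers and 21.9% of the SRSF2 peak numbers up to the highest in units with a strongly shared pair were not listed, and what the skipped numbers stand for is unknown. The paired share was larger in higher score classes. It was 43.2%, 70.1% and 81.1% for SRSF1 peaks scoring 20 to 29, 30 to 49 and 50 or more, and 23.99%, 60.9% and 87.3% for SRSF2 peaks. Since the rule sets a limit on the partner's score as well, these shares describe the selection and support nothing further.

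The pairs fell on a small set of hosts. A host unit is the part of a peak's name before its number. It is either a RefSeq or UCSC transcript or a numbered cluster for which the lists give no gene name. Of 6297 units with peaks of both proteins, 333 held a strongly shared pair (5.29%), and in all 955 pairs both peaks carried the same unit name. There were 273 clusters, 56 RefSeq mRNAs, 1 RefSeq noncoding RNA and 3 UCSC transcripts, with 769, 182, 1 and 3 pairs. A single pair was found in 182 units, 2 pairs in 54, 3 in 28 and 4 in 11. At the other end 58 units held 5 or more, 17 held 10 or more and 4 held 20 or more, so that the 10 fullest units carried 206 pairs (21.6%) and 47 units carried 50% of all. The share of units with more than 1 pair was 45.3% (39.9 to 50.9). No strong peak met a strong peak of the other protein on the opposite strand.

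**Figure D2:**
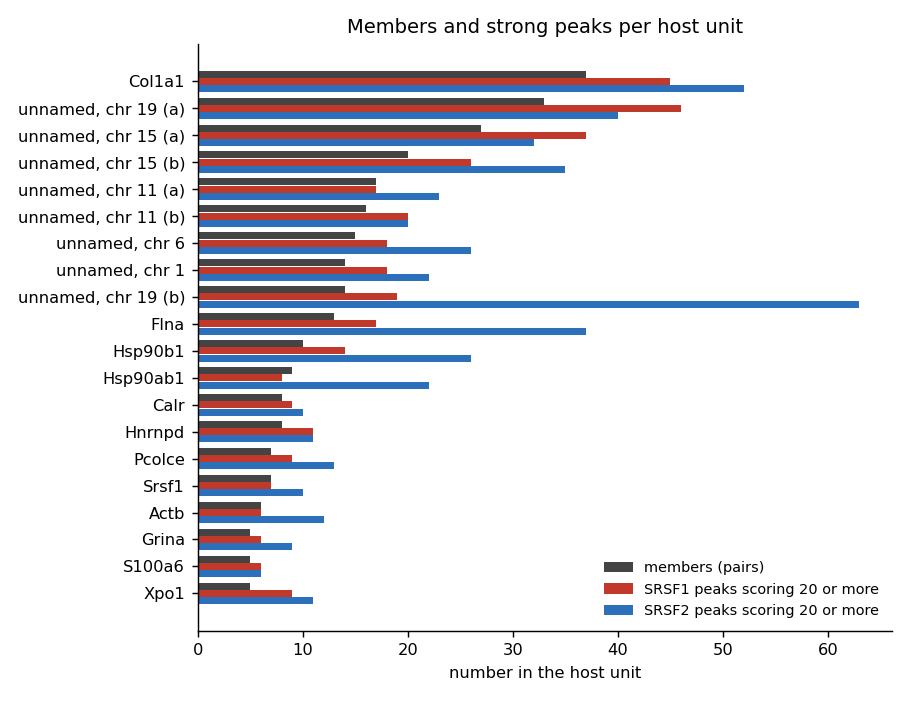
Number of strongly shared pairs (dark bars, called members), strong SRSF1 peaks (red) and strong SRSF2 peaks (blue) in the 12 genes with a symbol and the 8 unnamed units with most pairs; units on one chromosome are told apart by letters in order of their pairs. Col1a1 leads with 37 pairs, and the second unnamed unit of chromosome 19 has 63 strong SRSF2 peaks but 14 pairs.

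Among the 2155 genes that the names identify, 57 held a strongly shared pair (2.65%, or 4.01% of the 1422 with peaks of both proteins), with 183 pairs between them. The label MEF was checked against cell type markers. Of 16 fibroblast markers 4 were named in the lists, Col1a1, Col6a1, Postn and Thbs1, with 203 peaks, and 3 of these held a strongly shared pair. Of 5 epithelial markers Krt19 alone was named, with 1 peak, and the macrophage, endothelial, neuronal and skeletal muscle markers were not named. Most units carry no gene name, so a marker without a named unit is not shown to be unbound. The lists hold no measure of RNA abundance, and a host with more RNA and a host with more binding per RNA cannot be told apart. The gene lists used next were drawn up with earlier results of these data known, so they group the hosts and are no independent evidence.

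Both named collagen genes held strongly shared pairs, 39 in all and nearly all of them in 1 gene, while 1 of 8 other named matrix genes, Thbs1, did. Col1a1, which encodes a chain of type I collagen, the main protein of connective tissue fibres, held 37 pairs at 31 sites between chr11:94797584-94813158 (mm9, plus strand). Of its 55 SRSF1 peaks 45 were strong, all 52 of its SRSF2 peaks were strong, and 37 of its 44 overlapping pairs passed the rule. Ranked by the smaller score, as for every highest pair named here, its highest pair lay at chr11:94809228-94809271 and scored 51 for SRSF1 and 46 for SRSF2, and the next, at chr11:94813113-94813158, scored 38 and 37. Such density has to be read beside the floor of the unit, because the lowest listed score in Col1a1 was 18 for SRSF1 and 20 for SRSF2. Col6a1, which encodes a chain of the microfibrillar type VI collagen, had a lower floor of 12 in both lists and 2 pairs among 24 peaks of each protein. Pcolce, whose product helps to trim procollagen, held 7 pairs with smaller scores from 20 to 29. Thbs1, which encodes the matrix glycoprotein thrombospondin 1, differed from Col1a1, with 23 SRSF1 peaks but only 10 SRSF2 peaks listed, so few partners of any score existed. Of its SRSF1 peaks 13 were strong, and 2 of them (15.4%) had a strong SRSF2 peak. At those sites SRSF1 scored 32 and 46, and SRSF2 scored 20 and 21.

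The cytoskeleton was represented by 2 of the 7 named actin, adhesion and myosin genes. Flna, the actin crosslinker filamin A, held 13 pairs on chromosome X, with its highest at chrX:71475941-71476004 scoring 37 for SRSF1 and 36 for SRSF2. Over all 13 the SRSF1 scores ran from 20 to 37 and the SRSF2 scores from 22 to 36. The rule cuts both ranges off below 20, so they do not compare the proteins. Over all listed peaks of Flna the median score was 18 for SRSF1 and 22 for SRSF2. Of its 17 strong SRSF1 peaks 76.5% were paired, against 32.4% of its 37 strong SRSF2 peaks. Actb, which encodes cytoplasmic beta-actin, held 6 pairs, one for each of its 6 strong SRSF1 peaks. The SRSF1 scores at these sites ran from 20 to 49 and the SRSF2 scores from 28 to 66, and SRSF2 was higher at all 6. In some long transcripts with many peaks few pairs or none passed. Over all overlapping genic pairs 5.02% passed, and counts this small do not set a single gene apart from that share. Dync1h1, the heavy chain of the dynein motor, had 53 overlapping pairs and 2 of them passed, and Zfhx4, a large homeobox transcription factor gene, had 29 and 1. Smc5 with 30 pairs, Usp32 with 25, Map4k4 and Lamc1 with 23 each and Igf2r with 21 had none that passed. Their floors were low, 5 to 7 in both lists.

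Chaperones were the list with most named hosts, 4 of 8, with 28 pairs, where 2.65% of all named genes were hosts. Hsp90b1, the HSP90 chaperone of the endoplasmic reticulum, held 10 pairs, and its highest scored 31 for SRSF1 and 39 for SRSF2. The range over its pairs was 21 to 38 for SRSF1 and 20 to 44 for SRSF2, both cut off below 20 by the rule. Hsp90ab1, a cytosolic HSP90, held 9 within a unit of 3853 nt, over floors of 17 for SRSF1 and 19 for SRSF2. The SRSF1 scores were 20 to 28 and the SRSF2 scores 22 to 51. Calr encodes calreticulin, a calcium-binding chaperone of the endoplasmic reticulum. It held 8 pairs, 8 of the 10 that overlapped at all, with SRSF1 scores of 20 to 39 and SRSF2 scores of 23 to 37. The floors of Calr, 18 for SRSF1 and 21 for SRSF2, lay close to the limit. Atf4, a transcription factor of the stress response, held 1 pair with scores of 27 and 25. In the translation list Eif4g2 had 1 pair among 9 named genes, and among 4 named ribosomal protein genes Rpl7a had 3, where SRSF1 scored 27, 40 and 43 and SRSF2 scored 48, 64 and 71. Of 12 named genes in the histone list, the linker histone genes H1f0 and H1f2 held 2 pairs and 1.

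Of the named SR protein genes 1 of 4, Srsf1, held strongly shared pairs, and of the named hnRNP and other RNA-binding protein genes 1 of 7, Hnrnpd. Over all named genes with peaks of both proteins the share was 4.01%. Srsf1 encodes the factor itself, and 7 of its 8 overlapping pairs passed, at 6 sites within chr11:87861241-87866520 on the plus strand. Its floors, 17 for SRSF1 and 19 for SRSF2, lay close to the limit. From 5′ to 3′ the SRSF1 peaks at those sites scored 41, 36, 28, 63, 58 and 29. The SRSF2 peaks on them scored 32 and 31 at the first site, and 24, 35, 72, 51 and 24 at the others. Both libraries thus had their highest score at chr11:87862619-87862710, and SRSF1 was higher at 4 of the 6 sites. These sites were wide, with a median SRSF1 peak width of 91 nt over the pairs, against 33 nt over all paired SRSF1 peaks. The SRSF1 line carries a tagged SRSF1 gene, and whether reads from it add to the scores was not tested.

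Hnrnpd, which encodes a protein that binds AU-rich elements and regulates mRNA decay, held 8 pairs with SRSF1 scores of 20 to 28 and SRSF2 scores of 20 to 37. All 8 lay between chr5:100391579-100396286, in the 3′ part of a unit of 17418 nt whose floor was 11 in both lists. No named gene of the core spliceosome (5 of 29 were named), of the SR kinases (1 of 9), of nonsense-mediated decay (4 of 15) or of the listed noncoding RNAs (3 of 12) held one. The other genes of these lists had no named unit, so they are not shown to lack such pairs. Other hosts were single cases of varied function. Xpo1, the export receptor that carries proteins and some RNAs out of the nucleus, held 5 pairs spread over 19751 nt of a unit of 40506 nt, with smaller scores of 20 to 25. Grina, a membrane protein of the TMBIM family, and S100a6, a small calcium-binding protein, held 5 pairs each, and in both all overlapping pairs passed. The floors for SRSF1 and SRSF2 were 19 and 23 in Grina and 20 and 25 in S100a6. Nearly any overlapping pair in these 2 units thus had to pass. One site lay on the short vault RNA gene Vaultrc5, the only RefSeq noncoding host, with 55 for SRSF1 and 24 for SRSF2.

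Genes with fewer pairs were mostly near the limit. In the 31 named genes with a single pair the smaller score ran from 20 to 32. The highest was in Shmt2, the mitochondrial enzyme that turns serine into glycine, at chr10:126958011-126958053 with 37 for SRSF1 and 32 for SRSF2. H3f3b, a histone H3.3 gene, followed with 27 and 34. Among the 11 genes with 2 pairs, Stub1, a ubiquitin ligase that works with chaperones, had SRSF1 scores of 46 and 25 over SRSF2 scores of 25 and 25. Bsg, which encodes the membrane glycoprotein basigin, leaned the other way with 21 and 21 against 42 and 29. Cers5, a ceramide synthase gene, had 39 and 31 for SRSF1 against 30 and 27 for SRSF2. All 3 UCSC transcripts held 1 pair each, with scores of 34 and 37, 30 and 59, and 20 and 27 for SRSF1 and SRSF2.

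**Figure D3:**
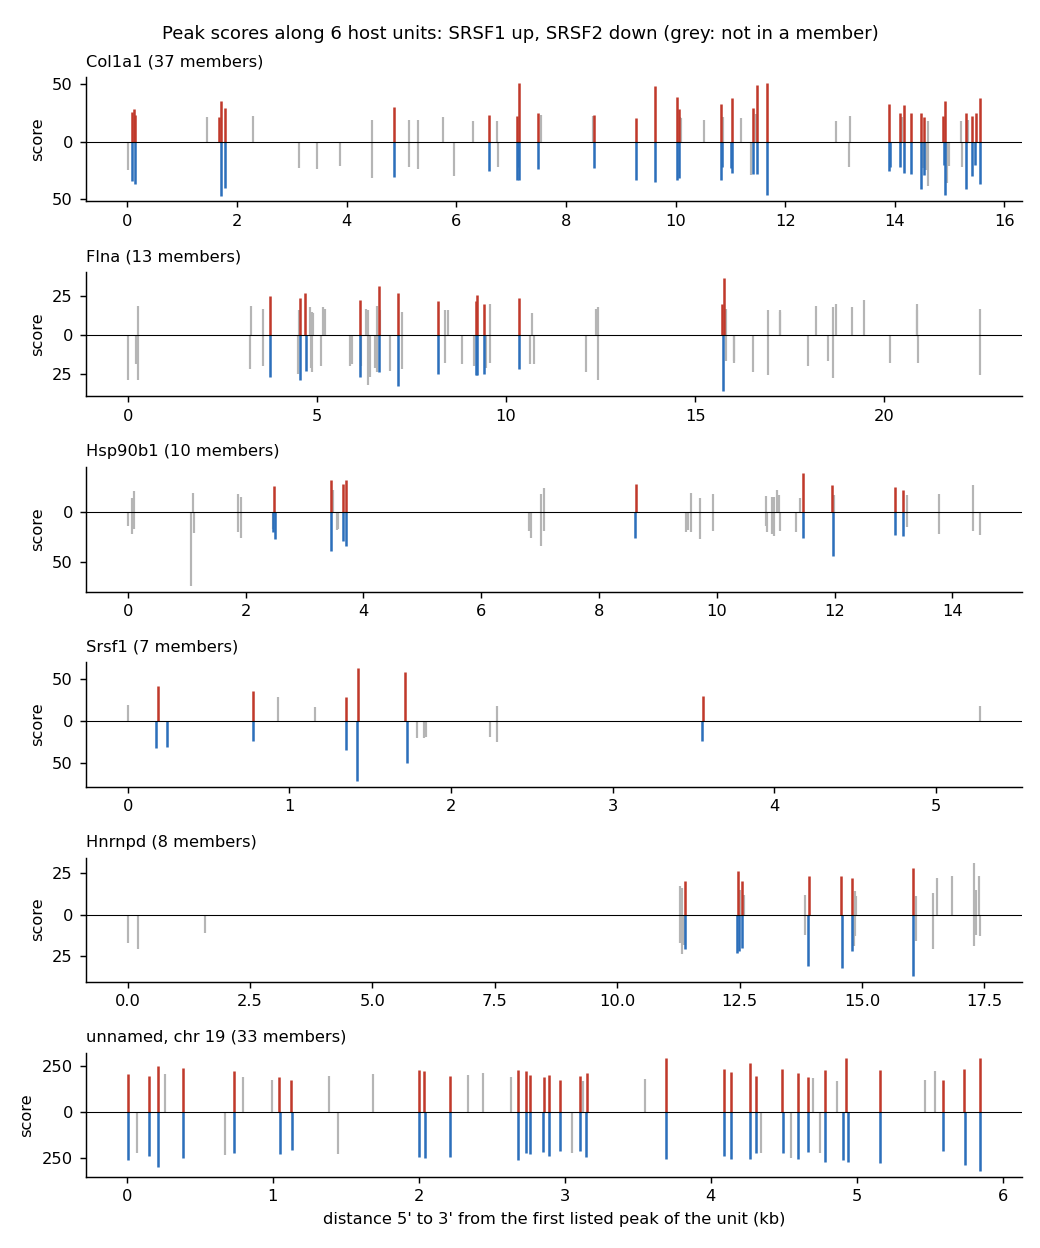
Score of each listed peak (vertical, SRSF1 upward and SRSF2 downward) against the distance in kb from the first listed peak of the unit, read 5′ to 3′, for 5 genes and the unnamed chromosome 19 unit; coloured lines are peaks in strongly shared pairs and grey lines the other listed peaks. Col1a1 carries them over its whole unit of 15575 nt, Hnrnpd only in its 3′ part, and no line of the chromosome 19 unit is shorter than 168 for SRSF1 or 205 for SRSF2.

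The cluster units held 80.5% of the pairs, close to their 83.1% of the other overlapping pairs. The lists name no gene for them, and a genome of the same build was not used here. Each was therefore placed between its nearest named units, and the genes on its strand that lie between those 2 neighbours in the RefSeq table of assembly GRCm38.p6 were listed, as a neighbourhood and not as an identification. Applied to named units, this listing held the unit's own gene in 2051 of 2054 cases, and in 239 of 239 where it held 1 gene. A named unit's gene is in that table by construction, so these counts check only that gene order is kept. They do not show that the gene of an unnamed unit is listed. For the unit at chr17:35379656-35517099, with 9 pairs, the listing held no gene. The look-up was added after the data had been seen.

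The unnamed unit with most pairs lay on the minus strand at chr19:5796092-5801958, with 33 pairs. All 33 of its overlapping pairs passed, and all 46 SRSF1 and 40 SRSF2 peaks in it were strong, because the lowest listed score was 168 for SRSF1 and 205 for SRSF2. It supplied the 8 pairs with the highest smaller score, from 233 to 290, and all 22 pairs in which both scores reached 200. Its highest pair, chr19:5796092-5796143, scored 290 for SRSF1 and 321 for SRSF2. A second unit of the same strand, chr19:5842389-5845007, held 6 pairs, all 6 that overlapped, over floors of 69 and 86.

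Outside the first of these units, 8 pairs in 6 units had both scores at 100 or more. The highest lay at chr5:147072568-147072705, with 177 for SRSF1 and 236 for SRSF2, in a unit whose floors were only 8 and 9 and whose neighbourhood holds Cdk8 and Wasf3. A pair at chr13:97960493-97960587 scored 138 and 230 over floors of 12 and 9. The median listed scores of the first unit were 11 for SRSF1 and 14 for SRSF2, and those of the second 18 and 12. These sites stood far above most peaks of their own units, in contrast to the chromosome 19 unit.

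In 5 more of the full clusters every overlapping pair passed. The unit at chr15:79358713-79376879 held 27 pairs, all of its overlapping pairs, and its neighbourhood holds Csnk1e, Kcnj4, Ddx17, Dmc1 and Fam227a. The unit at chr11:50191801-50199577 held 17 of 17, next to Mgat4b and Hnrnph1. A unit at chr11:106643840-106649698 held 16 of 16 with 9 genes between its neighbours. At chr6:51411215-51419831, 15 of 15 pairs passed, with 5 genes between the neighbours. At chr4:134479577-134483168, 13 of 13 passed, over floors of 35 and 38, with Rhd and Rsrp1 as the genes between the neighbours. These units spanned 18167 nt or less, and with floors between 19 and 38 nearly any pair in them had to pass.

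Longer clusters passed the rule at selected places. The unit at chr15:77591040-77672540, which neighbours Myh9, Rbfox2 and Arhgap39, held 20 pairs out of 97. The unit at chr19:9074679-9093617, with Ahnak and Rab3il1 between its neighbours, held 14 of 40, and 68.4% of its 19 strong SRSF1 peaks were paired against 22.2% of its 63 strong SRSF2 peaks. For 51 of the 276 unnamed units the neighbourhood held a single gene. The fullest of these were the unit at chr1:45432773-45559904, with 14 pairs of 67 and Col5a2 as the single gene, and that at chr6:4455732-4491243, with 12 of 44 and Col1a2. Both are fibrillar collagen genes, like Col1a1. Son and Srrm2, large scaffold proteins of nuclear speckles, were the single genes beside units with 7 and 5 pairs.

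The remaining single-gene neighbourhoods were mixed. A unit at chr15:57926053-57965857 with 8 pairs lay beside Atad2, a chromatin protein gene, and one at chr14:31984189-32019779 with 6 pairs beside Nisch. In the latter all 5 strong SRSF1 peaks were paired but only 37.5% of the 16 strong SRSF2 peaks. The cytolinker gene Dst was the single gene beside a unit of 339083 nt with 97 overlapping pairs, of which 5 passed, and Sptan1, which encodes a spectrin chain, beside one with 4 of 42. Next to Cd63, a tetraspanin gene, a unit of only 1285 nt held 4 pairs of 5, over floors of 16 and 23.

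Splicing genes took 6 of these 51 places, or 11.8% (4.44 to 23.9): Son, Srrm2, Srsf11, Hnrnpm, Tardbp and Rbfox2. Among units with both proteins and no strongly shared pair the same look-up gave 5 of 852, or 0.587% (0.191 to 1.36). Over all 15 gene lists the figures were 14 of 51 (27.5%) and 25 of 852 (2.93%). The lists were assembled with these data known and the units with a pair have more peaks, so the shares are given as a description.

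Hosts of strongly shared pairs had more peaks and higher scores, as a rule based on high scores selects them. They held a median of 28 peaks of both proteins (25 to 33), against 8 in units with both proteins and no such pair. Their floors were also higher, with median lowest scores of 10 for SRSF1 and 12 for SRSF2 against 6 and 7. Strongly shared pairs made up 955 of the 4223 overlapping pairs in these units, or 22.6%. Among the 242 units with 5 or more overlapping pairs the median share was 16.7%, and in 15 units every pair passed. In 27 units the lowest score of both lists was already 20 or more, and they held 158 pairs (16.5%). At the other extreme, 130 units with floors of 10 or less in both lists held 197 pairs (20.6%). A paired SRSF1 peak scored a median of 2.1 times the floor of its unit (2.05 to 2.17) and a paired SRSF2 peak 1.94 times (1.91 to 2), and in 407 pairs (42.6%) both peaks reached 2 times their floor.

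Within a host, the highest peaks of the proteins often fell on each other. In the 269 hosts with at least 5 peaks of each protein, the highest SRSF1 peak overlapped the highest SRSF2 peak in 52.04% (45.9 to 58.1). In the 2137 units of the same kind without a strongly shared pair it did so in 23.5% (21.7 to 25.3). Since the rule selects units in which high peaks coincide, the difference is part of the selection. Of the strong peaks that lay in hosts, 65.3% of 1414 SRSF1 peaks and 47.4% of 1970 SRSF2 peaks were paired.

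Paired peaks were wider than the general run. Their median width was 33 nt for SRSF1 (32 to 34) and 32 nt for SRSF2 (31 to 33), against 19 nt over all genic peaks of either list, with ranges of 6 to 145 nt and 6 to 152 nt. Width enters the rule only through overlap, yet wide peaks have more chance to touch a partner. Beside other strong peaks the difference was smaller and did not go one way. Strong peaks without a listed partner were narrower, with medians of 24 nt for SRSF1 and 26 nt for SRSF2. Those with a weaker partner only were as wide as the paired ones or wider, with medians of 35 nt (34 to 36) and 33 nt (33 to 34). Widths of 60 nt or more were found in 11.5% of paired SRSF1 peaks and 10.7% of paired SRSF2 peaks, against 0.822% and 2.25% of strong peaks without a partner.

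**Figure D4:**
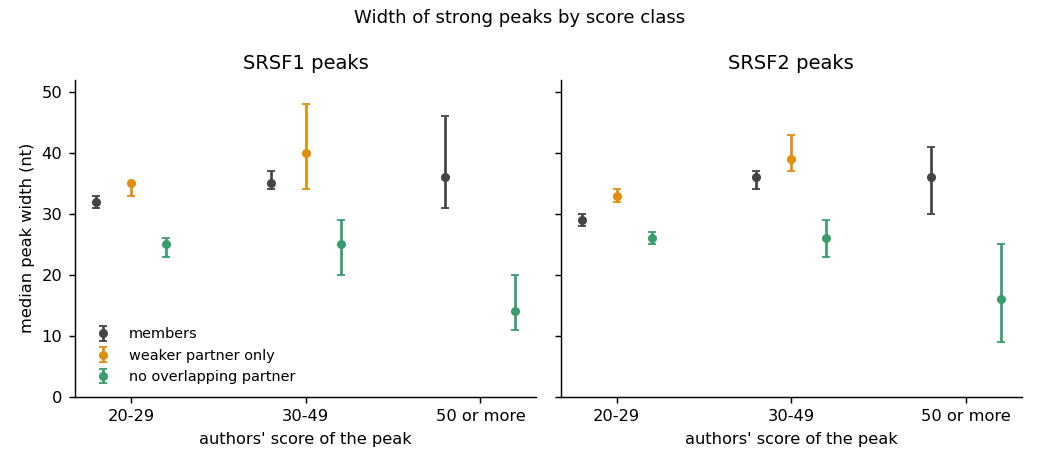
Median peak width in nt with its exact 95% interval (vertical) by score class (horizontal), for strong peaks in strongly shared pairs (dark, called members), with a weaker partner only (orange) and without a listed partner (green); classes of under 10 peaks are not drawn. In every class drawn the peaks without a partner are the narrowest, at 14 to 26 nt, while those with a weaker partner reach 33 to 40 nt.

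The order held within score classes. For scores of 20 to 29 the medians of SRSF1 were 32 nt for paired peaks, 35 nt with a weaker partner and 25 nt without a partner, and those of SRSF2 were 29, 33 and 26 nt. For scores of 50 or more the paired peaks had medians of 36 nt in both lists and the peaks without a partner 14 nt for SRSF1 and 16 nt for SRSF2. Many of the latter came from the chromosome 19 unit, namely 14 of the 21 for SRSF1 and 7 of the 13 for SRSF2. Outside that unit the medians were 47 nt (n = 58) and 43 nt (n = 77) for paired peaks and 18 nt (n = 7) and 17 nt (n = 6) for peaks without a partner. The widest spans covered 152 nt at chr1:45499557-45499708, where 1 SRSF2 peak scoring 53 lay over 2 SRSF1 peaks scoring 33 and 31. Next came 150 nt at chr6:4455753-4455902, in the units that neighbour Col5a2 and Col1a2.

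In a strongly shared pair the peaks lay almost on top of each other, and their ends matched more often than in weaker pairs. Midpoints were within 10 nt in 81.7% of pairs (79.1 to 84.1), against 83.8% of the other overlapping pairs (83.3 to 84.4), though the peaks were wider. The median distance between midpoints was 2.5 nt, against 3.5 nt. The 5′ ends agreed within 3 nt in 57.3% and the 3′ ends in 51.9%, against 47.8% and 41.6% of the other pairs, and both ends were identical in 35 pairs (3.66%, against 1.85%). The shorter peak lay wholly inside the longer in 70.3%. A median of 28 nt was held in common, against 16 nt. Neither protein led consistently, with the SRSF2 midpoint downstream of the SRSF1 midpoint in 54.3% of pairs whose midpoints differed (51.0 to 57.7) and in 52.5% of the other pairs. Across the 955 pairs the widths of the partners had a Spearman rho of 0.564, against 0.110 in the other pairs. Other pairs with a smaller score of 10 to 19 were nearer to the strongly shared ones. Among them the rho was 0.242 and midpoints were within 10 nt in 81.7%. Their 5′ and 3′ ends agreed within 3 nt in 50.1% and 44.0%. Pairs share peaks, units and libraries, so these values are a description.

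Peaks split unevenly between the lists at some sites. At 31 SRSF1 peaks more than 1 strong SRSF2 peak was met, and at 20 SRSF2 peaks more than 1 strong SRSF1 peak. In Hsp90ab1 an SRSF1 peak of 72 nt at chr17:45707280-45707351 scored 27 and lay over SRSF2 peaks of 29 nt and 35 nt that scored 40 and 30. In Calr an SRSF2 peak of 30 nt scoring 37 met SRSF1 peaks scoring 20 and 23.

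The scores of the partners were close to each other, SRSF2 being slightly higher. The median log2 ratio of the SRSF1 score to the SRSF2 score was -0.11 (-0.14 to -0.07), against -0.17 over all overlapping genic pairs, and its SD over pairs was 0.415, against 0.570 in the other pairs. SRSF1 was higher in 340 of the 891 pairs with unequal scores and equal in 64. A ratio of 2 or more in favour of SRSF1 was found in 7 pairs (0.733%), where all overlapping genic pairs gave 2.7%. In favour of SRSF2 it was found in 17 pairs (1.78%), where all gave 7.43%. Both scores enter the rule, so the ratio and its spread describe the selection. The lists were scored separately, and a score of one list need not equal the same score of the other.

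**Figure D5:**
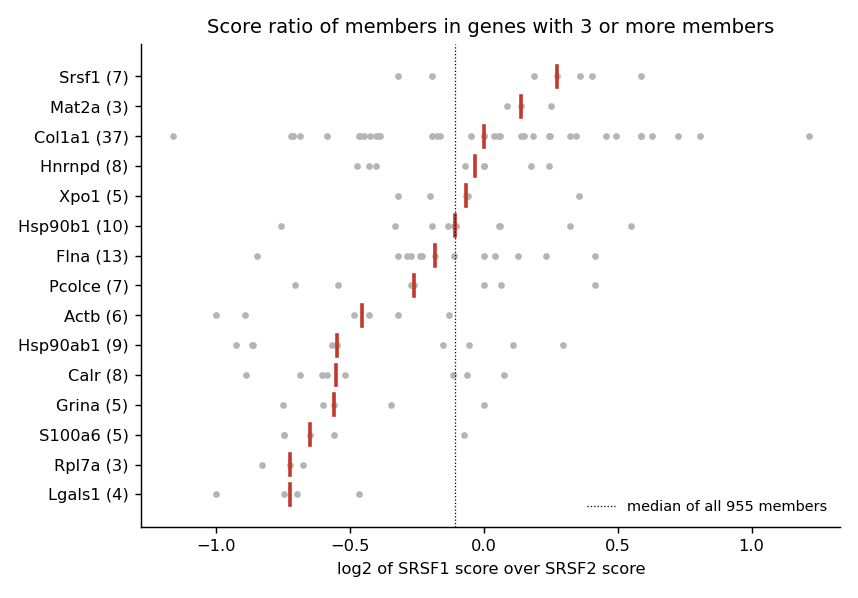
The log2 ratio of the SRSF1 score to the SRSF2 score (horizontal) for each strongly shared pair (grey points) in the 15 genes with 3 or more, ordered by their median (red bars), with the number of pairs in brackets and the median of all pairs dotted. Srsf1 and Mat2a have medians above 0, Col1a1 lies at 0 with points on both sides, and Lgals1 and Rpl7a lie lowest near -0.72.

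The ratio varied between and within hosts. In the 58 units with 5 or more pairs the unit medians ran from -0.71 to 0.54, and 14 of them were above 0. Single pairs within those units had an SD of 0.396. Among the 15 genes with 3 or more pairs, 12 had a median below 0, Col1a1 was at 0, and Srsf1 (0.27) and Mat2a (0.14) were above. Mat2a encodes the enzyme that makes S-adenosylmethionine, and its SRSF1 scores of 25, 35 and 22 stood over SRSF2 scores of 21, 33 and 20. The lowest medians were in Lgals1, which encodes galectin-1, with SRSF1 scores of 56, 21, 25 and 21 against SRSF2 scores of 91, 42, 42 and 29, and in Rpl7a. S100a6 lay at -0.65, with SRSF2 higher at all 5 pairs. Over all listed peaks the median score was 28 for SRSF1 and 42 for SRSF2 in S100a6, and 21 and 29 in Lgals1. The lean to SRSF2 in both genes was thus not particular to their strongly shared sites.

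Single pairs reached further. The most SRSF1-weighted lay at chr11:86398889-86398944, with scores of 135 and 37, where the SRSF2 peak was 7 nt wide against 55 nt for SRSF1. The next lay at chr4:126714169-126714214, with 78 and 32. The Col1a1 pair at chr11:94804701-94804750 followed with 51 and 22, and there too the SRSF2 peak was short, 6 nt. The most SRSF2-weighted lay at chr17:46541073-46541112, with 27 for SRSF1 and 92 for SRSF2. At chr9:123371198-123371246 the scores were 23 and 67, in a unit whose neighbourhood holds Lars2 alone, and at chr17:35384130-35384193 they were 52 and 128.

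At a distance of 500 nt, strongly shared sites had another about as often as sites of overlapping pairs of any score, taken over all units. Of the 903 sites, 39.4% (36.2 to 42.7) had another within 500 nt on the same strand, and the median distance to the nearest was 1013 nt (857 to 1237). Sites of overlapping pairs of any score gave 37.6% (36.8 to 38.3) and 1435 nt. At 100 nt the order was the other way, with 17.7% of the strongly shared sites (15.3 to 20.4) against 23.5% of all pair sites (22.9 to 24.2). Without the units whose lowest scores are 20 or more in both lists, the share of strongly shared sites with another within 500 nt fell to 31.8% (28.5 to 35.3). The 37.6% of all pair sites still includes those units, so it does not compare directly with this share. There are 17386 sites of all pairs and 903 strongly shared ones, so these shares come from sets of very different density. In units with 2 or more strongly shared sites, their median distance to the nearest was 506 nt (422 to 620). Pair sites of any score in units with a strongly shared pair gave 221 nt (202.5 to 244). The former sites are part of the latter, so their wider spacing is no separate result. Joining sites up to 500 nt apart gave 547 single sites and 124 runs of 2 or more, 41 of them of 3 or more, 16 of 5 or more and 3 of 10 or more. Runs of 3 or more held 21.04% of the sites.

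The longest run had 14 sites in 2198 nt, in the chromosome 19 unit, which also held runs of 11 sites in 1170 nt and 7 in 1135 nt. Col1a1 had 12 sites in 1687 nt at chr11:94811472-94813158, the 3′ end of its listed peaks, with smaller scores of 20 to 37. Along that run the higher SRSF1 scores, 38, 35 and 33, and the higher SRSF2 scores, 46, 41 and 41, did not all fall on the same sites: the site at chr11:94811472-94811499 scored 33 for SRSF1 with 26 and 22 for its SRSF2 peaks, and that at chr11:94812034-94812075 scored 25 and 41. In S100a6 all 5 sites lay within 540 nt and in Grina all 5 within 1011 nt. In Srsf1, 3 sites with smaller scores from 28 to 63 lay within 443 nt. By contrast the 5 sites of Xpo1 formed no run of 3. Other listed peaks, counted here at any score, were near most sites. Another peak of the same list lay within 200 nt of 65.7% of the paired SRSF1 peaks (62.5 to 68.8) and 68.3% of the paired SRSF2 peaks (65.2 to 71.3). For strong peaks without a partner the shares were 57.0% (51.7 to 62.1) and 60.4% (56.6 to 64.2).

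Along a unit, the position of strongly shared pairs against the weaker pairs of the same units depended on the measure. Positions were measured from the first to the last listed peak, since no transcript ends of this build were used. In units of at least 1000 nt the median relative position was 0.478 (0.446 to 0.506) for strongly shared pairs and 0.580 (0.561 to 0.601) for the other pairs. The 5′-most 20% of the unit held 23.7% of them (21.03 to 26.6) against 17.1% (15.8 to 18.4), and the 3′-most 20% held 20.9% (18.4 to 23.7) against 25.7% (24.2 to 27.3). Over all other overlapping pairs, whatever their unit, the median position was 0.495, near that of the strongly shared pairs. In distance the order was different: 23.0% of strongly shared pairs (20.3 to 25.8) and 10.7% of the other pairs in the same units (9.64 to 11.8) lay within 2000 nt of the last listed peak's end. In the 64 units with 3 or more pairs of each kind, the strongly shared pairs lay more 5′ on average in 43, with a median difference of -0.0787 of the unit. In units of 10 kb or more, 14.01% of 614 strongly shared pairs (11.4 to 17.01) were within 2000 nt of the first listed peak's start. For the 3042 other pairs the share was 7.33% (6.43 to 8.32). Within 2000 nt of the last listed end the shares were 9.93% (7.68 to 12.6) and 8.22% (7.27 to 9.25), with overlapping intervals. Whether exons, introns or transcript ends account for these positions was not tested.

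Chromosomes contributed unevenly. Chromosome 11 held 146 pairs (15.3%, against 8.24% of the other overlapping pairs) in 35 units, of which Col1a1 gave 37. Chromosome 15 held 97 (10.2%, against 6.03% of the other pairs), of which 1 unit gave 27. Chromosome 19 held 74 (7.75%, against 3.91%), of which 1 unit gave 33. Chromosome 13 held 5 (0.524%, against 2.86%). Strong SRSF1 peaks were paired in 60.6% on chromosome 11 and 21.7% on chromosome 13, where 23 were listed.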

How the data were processed

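The authors deposited 1 peak list for each of 2 libraries, giving each peak's position, strand, name and score. The score column is the authors' own and was used to select and describe peaks. The build is mm9, per the submitters' processing notes, and positions are printed 1-based. Aligner, peak caller, threshold, pooling and read depth were not given in the sources used here. Peaks named nongenic or on the mitochondrial chromosome were left out, and pairs were formed from same-strand overlaps of 1 nt or more. The overlap function was tested on simulated data and checked against bedtools 2.31.1, which gave the same 19028 pairs. Of 2169 RefSeq units, 2155 matched a symbol in the RefSeq gene table (assembly GRCm38.p6). No genome of the same build was used, so no exon, intron, untranslated region, motif or sequence is given. Shares have exact (Clopper-Pearson) intervals and medians exact order-statistic intervals, computed with scipy 1.17.1.

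The rule for names took the 12 genes and 8 unnamed units with most pairs, the 8 pairs with the highest smaller score, the 4 highest and 4 lowest score ratios, the 4 widest pairs, up to 4 genes of each of the 15 lists and the 4 longest runs. Other genes and units named were chosen after their values were seen. The members and gene lists were chosen with earlier results of these data known. Alternatives changed the score limit, the overlap, the counting of pairs, the units and the chromosomes kept. The genes near 1 unit on chromosome 19 are not reported here.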

Additional observations from a re-analysis of the deposited data

Results flagged for a closer look

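Pairs with both scores at 20 or more also occurred in peaks that the rule leaves out. In regions that the authors named nongenic there were 142 such pairs in 93 regions, with a median smaller score of 34, against 24 for the 955 genic pairs. A single region on chromosome 17 held 25 of them and reached a smaller score of 354, above the genic maximum of 290. On the mitochondrial chromosome there were 48 such pairs, with a median smaller score of 56.5. No control library enters these counts, and the source of the signal was not tested.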

How the results depend on the processing

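No paired analysis was possible because each protein has 1 library and its result comes from no test. Of 283 values under the alternatives 255 moved by less than their counting interval or by less than 1.5 times for counts, 28 moved further and 0 reversed. Most of the 283 came from leaving out 1 chromosome at a time, which removes few pairs and moved 0 of them. All 28 moves therefore fell among the fewer values of the other alternatives. With a score limit of 30 there were 239 pairs in 97 units, 38.1% of them with more than 1 pair. The paired shares were then 54.5% (SRSF1) and 35.8% (SRSF2), the median widths 36 and 35 nt, and 46.3% of sites had another within 500 nt. A limit of 15 gave 2457 pairs in 748 units with widths of 31 and 30 nt. Taking the upper 10% of each list gave 1892 pairs in 596 units, paired shares of 46.8% and 38.1%, widths of 31 and 30 nt and a median log2 ratio of -0.14. With each peak counted in its best pair only, midpoints were within 10 nt in 85.4%. Keeping nongenic peaks gave 35.9% paired for SRSF2, 39.9% of units with more than 1 pair and an SRSF1 width of 35 nt. Without the units whose lowest scores are 20 or more in both lists the paired shares were 47.6% and 30.9%, and 31.8% of sites had another within 500 nt. Over all 903 sites, 17.7% had another within 100 nt and 60.5% within 2000 nt. Leaving out each chromosome in turn moved 0 of these results; pairs ran from 809 to 950 and the paired SRSF1 share from 48.7% to 51.1%. Read depth is unknown, so a peak absent from a list is not shown to be unbound, and the scores of different units need not be comparable. The causes of these changes were not tested.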
